A study of Rattus norvegicus with 26 samples.

Results

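The Foxc, Foxf and other mesodermal forkhead factors described here are 10 genes taken by name from the forkhead family: *Foxc1*, *Foxc2*, *Foxf1*, *Foxf2*, *Foxo1*, *Foxo3*, *Foxp1*, *Foxq1*, *Foxd3* and *Foxh1*. The gene names in the scanner files matched 7 of them, through 8 probes. The probes of *Foxc1* and *Foxf1* carry other names in these files and were found through the NCBI gene number in the probe description, so that 9 genes and 10 of the 41012 gene probes on the array were followed. *Foxf2* was found neither by name nor by number and was not analysed here.

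Forkhead factors bind DNA through a shared winged-helix domain and control which genes a cell lineage can use. *Foxc1* and *Foxc2* act in paraxial mesoderm, somites, neural crest and vessels, and *Foxf1* acts downstream of hedgehog signals in lateral plate mesoderm and visceral smooth muscle. *Foxh1* joins activated Smad proteins on target genes in response to Nodal and activin, *Foxo1* and *Foxo3* are held out of the nucleus by Akt, *Foxp1* is mostly a repressor, *Foxd3* is a factor of pluripotent cells and neural crest, and *Foxq1* is best known from hair and epithelia.

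RNA was measured on 26 one-colour Agilent arrays. Cl19 and 3c3 are rat multipotent adult progenitor cell lines that express Oct4 (rMAPCs), each 1 clone from the bone marrow of female Fischer rats, at the age of 3 weeks for Cl19 and at E18 for 3c3. Both lines received TGFβ1 and PDGF-BB and were sampled on d0, d2, d4 and d6 with 3 arrays per line and day. The labels number these arrays as replicates, and the study's methods call them biological ones. By those methods, cells were plated for the differentiation and the medium held no FBS, while d0 stands for undifferentiated cells. No array came from cells kept to a later day without the factors. Effects of the factors, of plating and medium, and of time in culture therefore cannot be told apart in any difference between days. RNA of primary smooth muscle cells (primary SMCs) was bought and measured on 2 arrays. The labels call it rat aortic RNA, whereas the methods name primary SMC RNA from another supplier, and neither gives the age or strain of the animals.

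All values are log2 signals after quantile normalization over the 26 arrays, and a probe was tested if all arrays of some group, out of 9 groups, read it well above background by the scanner software's own call, which held for 24442 probes. Between 43.2% and 61.4% of the gene features were well above background on an array, and no gene feature was saturated. The 4 arrays of 3c3 replicate 3 shared a slide with a higher background: the negative controls averaged between 28.3 and 47.7 there and between 11.0 and 16.1 on the other 22 arrays. The array labelled Cl19 d2 replicate 1 differed from the 3c3 d2 arrays by a root mean square of 0.38 to 0.54 and from the other Cl19 d2 arrays by 0.88 and 0.92, so Cl19 d2 values are given with and without it where they move. Each line, and the primary SMC arrays, was scanned on a day of its own, so a level that differs between the lines or from primary SMCs cannot be told apart from the scan. Each slide of a line held its 4 days in the same order of positions, so day and position cannot be told apart either. In these bulk RNA samples, fewer cells of a type and less RNA per cell cannot be told apart.

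The 8 smooth muscle markers with a probe could all be read above background in primary SMCs, on both arrays, and of the 6 endothelial markers none was on both. The 5 fibroblast markers were all well above background on them as well, among them *Col1a1*, *Dcn* and *Lum*. On d0, each array of both lines detected all 7 markers of rMAPCs and primitive endoderm.

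The probes that carry the main results are 60 bases long and are shown with the bases that they share with other forkhead probes. Capitals mark the longest run that a probe shares with any of the 36 other forkhead probes compared, which were those of the other factors described here and the brightest probe of each other forkhead gene.
Foxc1: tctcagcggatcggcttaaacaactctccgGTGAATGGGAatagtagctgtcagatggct
Foxc2, probe 1: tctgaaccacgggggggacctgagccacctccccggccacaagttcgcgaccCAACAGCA
Foxf1: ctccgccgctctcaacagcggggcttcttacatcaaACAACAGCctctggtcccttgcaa
Foxh1: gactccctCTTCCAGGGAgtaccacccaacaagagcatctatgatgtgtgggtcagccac
Foxp1: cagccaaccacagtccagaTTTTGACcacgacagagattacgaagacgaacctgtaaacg

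The longest shared run was 10 bases for *Foxc1* (with *Foxi1*) and for *Foxh1* (with *Foxn1*), 8 for *Foxf1* and for the first *Foxc2* probe (both with *Foxo3*) and 7 for *Foxp1* (with *Foxp2*). Without gaps, no more than 27 of the 60 bases of any of these 5 probes matched another forkhead probe. Only probes were compared with probes, not with transcripts, so cross-hybridization with the RNA of another forkhead gene was not tested. On the rat assembly rn4, the array's annotation puts the *Foxc1* probe at chr17:39028015-39028074 on the minus strand, the *Foxq1* probe at chr17:39333167-39333226, also minus, the *Foxh1* probe at chr7:114717947-114718006 minus and the *Foxp1* probe at chr4:133773452-133773511 minus. The *Foxo1* probe lies at chr2:141201740-141201799 on the plus strand, the *Foxo3* probe at chr20:46185033-46185092 on the minus strand and the *Foxd3* probe at chr5:120334911-120334970 on the plus strand. The annotation gives no position for the probes of *Foxc2* and *Foxf1*, and does not name the exon of any of these probes.

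**Figure D1:**
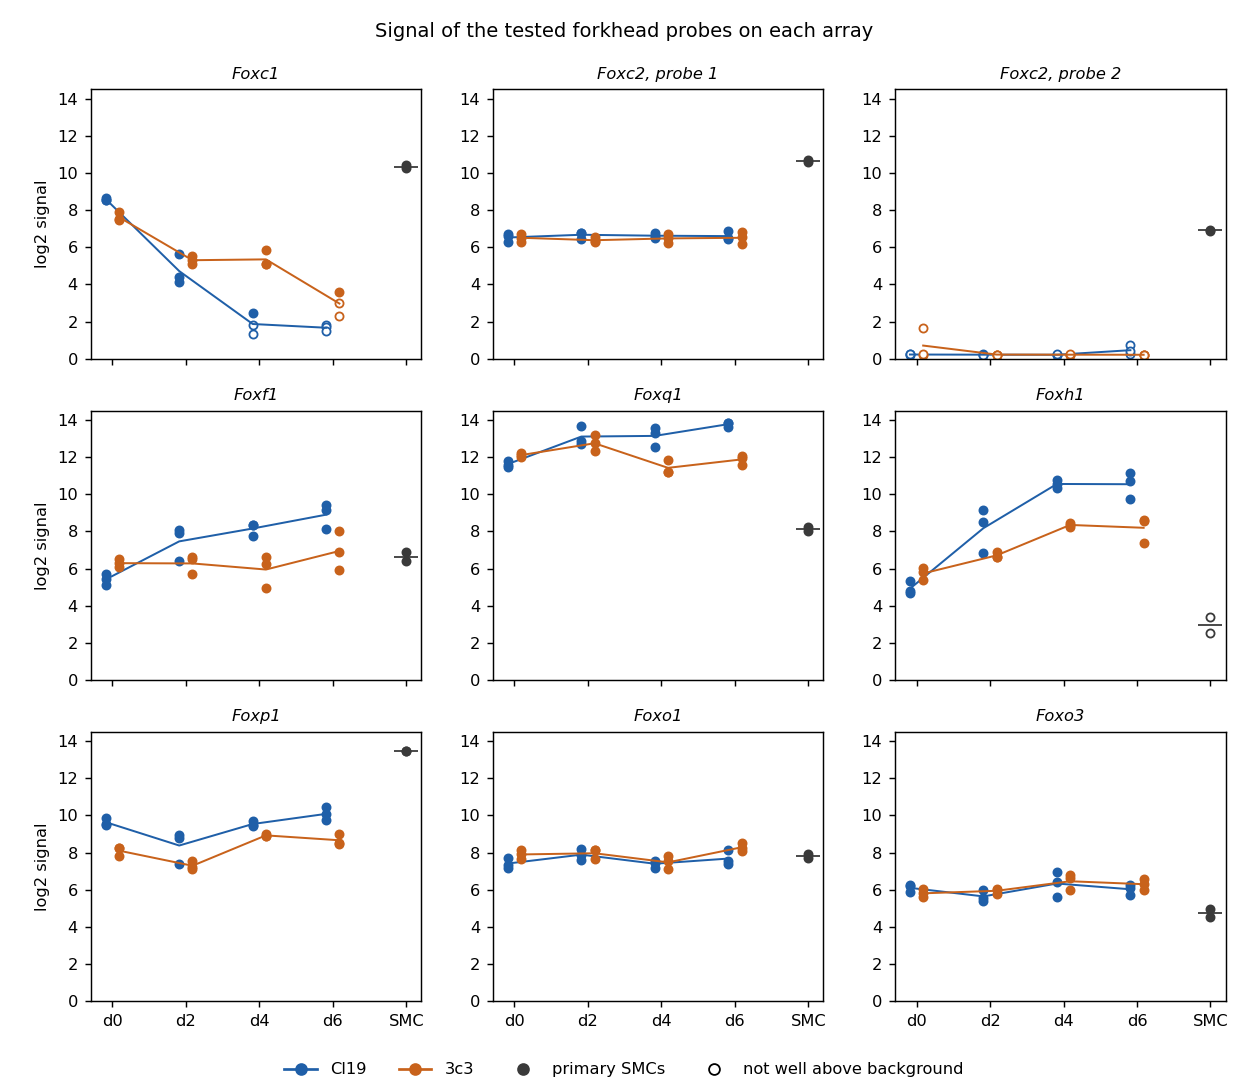
Log2 signal (vertical axis) of the 9 tested forkhead probes on each array, by day of differentiation for Cl19 and 3c3 and for primary SMCs. Points are arrays, open points were not well above background and lines join group means. *Foxc1* fell from 8.59 to 1.67 in Cl19 while *Foxh1* rose from 4.92 to 10.54, and the first *Foxc2* probe stayed between 6.15 and 6.86 on all rMAPC arrays.

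Over the time course, the moderated F-test of limma called 5 of the 9 tested probes in each line (Benjamini-Hochberg adjusted p below 0.05), where 54.3% of all tested probes were called in Cl19 and 50% in 3c3. *Foxc1*, *Foxp1*, *Foxq1* and *Foxh1* were called in both lines. *Foxf1* was called in Cl19 (adjusted p = 6.81e-05) and not in 3c3 (adjusted p = 0.394). *Foxo1* was called in 3c3 (adjusted p = 0.0409) and not in Cl19 (adjusted p = 0.205), and its 3c3 call was lost when any of 7 single arrays was left out, with adjusted p up to 0.174, or when the slide of high background was left out (adjusted p = 0.114). The share of these probes that was called lay near the share of all tested probes in both lines.

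*Foxc1* fell in both lines. In Cl19 the 3 arrays read 8.66, 8.57 and 8.55 on d0, 5.62, 4.42 and 4.12 on d2, and 1.82, 1.70 and 1.49 on d6. In 3c3 they read 7.88, 7.52 and 7.47 on d0, 5.10, 5.52 and 5.29 on d2, and 3.60, 2.33 and 2.99 on d6. These 3 days did not overlap in either line. On d6 no Cl19 array and 1 of 3 arrays of 3c3 read the probe well above background. The d6 signal was therefore at least 94.2-fold below that of d0 in Cl19 (limma adjusted p = 1.71e-11), and for 3c3 the bound was at least 18.9-fold (adjusted p = 4.61e-09). These bounds set the mean of d0 against each d6 array's own value or, where higher, its lowest signal well above background. Adjusted p values beside a bound, here and below, come from limma on the values as read and do not test the bound.

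The level on d4 stood differently in the lines, a difference that was not tested. In Cl19, the *Foxc1* mean was 4.72 ± 0.80 on d2 (SD, n = 3; 4.27 without replicate 1) and 1.87 ± 0.56 on d4, where 1 of 3 arrays was well above background. In 3c3, it was 5.31 ± 0.21 on d2 and 5.35 ± 0.45 on d4, and the arrays of these days overlapped. From d0 to d2 the probe fell by 3.87 in Cl19 (standard error 0.35, adjusted p = 1.68e-07) and by 2.32 in 3c3 (adjusted p = 8.35e-05) on the log2 scale. From d0 to d6 the change in Cl19 minus that in 3c3 was −2.27 ± 0.50 (standard error, adjusted p = 0.00272) although, apart from 1 of the 3 arrays of 3c3, the d6 values were not well above background.

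*Foxc2*, the closest relative of *Foxc1*, was measured by a pair of probes, of which the brighter alone was detected in rMAPCs. The brighter probe was well above background on all 26 arrays and did not pass any test between days. Its group means in the rMAPC lines ran from 6.38 to 6.68, each overlapping its neighbours in order, and the log2 difference between d6 and d0 was 0.08 in Cl19 (95% interval −0.31 to 0.46) and −0.00094 in 3c3 (−0.38 to 0.38). None of the 24 rMAPC arrays read the dimmer probe well above background. Primary SMCs showed both probes on both arrays, at 10.69 and 10.61 for the brighter and 6.90 and 6.93 for the dimmer.

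*Foxf1*, the hedgehog-responsive factor, rose in Cl19. The Cl19 arrays read 5.68, 5.11 and 5.45 on d0 and 9.43, 8.11 and 9.15 on d6, with no overlap. The 3c3 arrays read 6.29, 6.06 and 6.51 on d0 and 8.03, 5.93 and 6.88 on d6, and these overlapped. The probe was thus 11.2-fold higher on d6 in Cl19 (log2 3.49 ± 0.52, standard error, adjusted p = 1.21e-05), and differed by a log2 of 0.66 in 3c3 (95% interval −0.43 to 1.74, adjusted p = 0.318). Within the 3 slides of Cl19 the difference was 3.75, 3.01 and 3.70, and within those of 3c3 it was 1.73, −0.13 and 0.37.

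The d6 change of *Foxf1* was larger in Cl19 by a log2 of 2.83 ± 0.73 (standard error, adjusted p = 0.00977). Without the 3c3 slide of high background it was larger by 2.69, with an adjusted p of 0.0681. In Cl19 the rise had begun on d2, at 6.40, 7.90 and 8.08, where the lowest value is that of the array nearest to the 3c3 arrays. *Foxf1* was higher on d2 than on d0 by 2.05 with that array (adjusted p = 0.00674) and by 2.58 without it (adjusted p = 0.00112). The further difference between d2 and d6 of 1.44 was called with it (adjusted p = 0.0381) and fell to 0.91 without it (adjusted p = 0.24). It also lost its call without Cl19 d6 replicate 1 (adjusted p = 0.147) or replicate 3 (adjusted p = 0.101).

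*Foxq1* lies near *Foxc1* on chromosome 17, with *Foxf2* between them in the gene order of the GRCr8 assembly. Its arrays in Cl19 read 11.80, 11.59 and 11.47 on d0 and 13.60, 13.86 and 13.85 on d6. In 3c3 they read 12.20, 12.00 and 12.11 on d0 and 12.05, 11.97 and 11.59 on d6. It rose 4.43-fold in Cl19 (log2 2.15 ± 0.27, standard error, adjusted p = 1.91e-06), and the groups of 3c3 overlapped, with a difference of −0.23 (adjusted p = 0.517).

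The d6 changes of *Foxq1* differed between the lines by a log2 of 2.38 ± 0.39 (standard error, adjusted p = 0.000198). On d2 the probe was higher than on d0 by 1.48 in Cl19 (adjusted p = 0.000511), where the d2 mean moved from 13.10 to 13.29 without replicate 1. In 3c3 it was higher by 0.64, where the arrays did not overlap but the test was not passed (adjusted p = 0.116). From d2 to d6 it fell by 0.87 in 3c3 (adjusted p = 0.0222), from 13.17, 12.31 and 12.74 to the d6 values above. That call was lost without the slide of high background (a difference of −0.73, adjusted p = 0.193), and so was the call of *Foxq1* over the 3c3 time course (adjusted p = 0.0775). The call between d2 and d6 was also lost without 3c3 d2 replicate 1 (adjusted p = 0.125) or replicate 3 (adjusted p = 0.0559), and without 3c3 d6 replicate 3 (adjusted p = 0.0955).

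*Foxh1*, the Smad partner, rose in both lines. The Cl19 arrays read 5.31, 4.66 and 4.78 on d0, 6.85, 8.52 and 9.15 on d2 and 11.16, 9.72 and 10.73 on d6. The 3c3 arrays read 6.01, 5.40 and 5.80 on d0, 6.63, 6.59 and 6.90 on d2 and 8.62, 7.39 and 8.56 on d6. No array of a later day overlapped d0 in either line. The signal was 49.2-fold higher on d6 than on d0 in Cl19 (log2 5.62 ± 0.46, standard error, adjusted p = 6.16e-09) and 5.49-fold higher in 3c3 (log2 2.46 ± 0.46, adjusted p = 0.000191).

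The *Foxh1* change was larger in Cl19 by a log2 of 3.16 ± 0.65 (standard error, adjusted p = 0.00159). The mean on d4 was 10.55 ± 0.21 in Cl19 and 8.34 ± 0.12 in 3c3 (SD, n = 3), and in both lines the d4 arrays overlapped those of d6. On d2 it was higher than on d0 by 3.26 in Cl19 (adjusted p = 3.21e-05; 3.92 without replicate 1) and by 0.97 in 3c3 (adjusted p = 0.157). Between d2 and d6 it rose by 2.36 in Cl19 (adjusted p = 0.00048; 1.70 without Cl19 d2 replicate 1, adjusted p = 0.00327) and by 1.48 in 3c3 (adjusted p = 0.0199). The 3c3 call did not survive leaving out the slide of high background (a difference of 1.39, adjusted p = 0.139) or any of 4 single arrays, 3c3 d2 replicates 1 and 2 and 3c3 d6 replicates 1 and 3, with adjusted p between 0.0567 and 0.0792.

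*Foxp1* had its lowest mean on d2 in both lines. In Cl19 the arrays read 9.52, 9.50 and 9.89 on d0, 7.37, 8.81 and 8.96 on d2 and 10.44, 10.07 and 9.74 on d6. In 3c3 they read 8.27, 7.82 and 8.23 on d0, 7.10, 7.24 and 7.53 on d2 and 8.45, 9.02 and 8.51 on d6. All d2 arrays were below all d0 and d6 arrays of the same line. The probe fell by 1.26 from d0 to d2 in Cl19 (standard error 0.30, adjusted p = 0.00397). Without replicate 1, the array with the lowest d2 value, it fell by 0.75 (adjusted p = 0.013). In 3c3 the difference was −0.81 (adjusted p = 0.061).

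From d2 to d6 *Foxp1* rose by 1.70 in Cl19 (adjusted p = 0.00017; 1.20 without Cl19 d2 replicate 1) and by 1.37 in 3c3 (adjusted p = 0.0019). The d6 level did not pass the test against d0, with a log2 difference of 0.45 in Cl19 (95% interval −0.17 to 1.06) and 0.56 in 3c3 (−0.059 to 1.17). In 3c3 the d6 arrays nevertheless all lay above the d0 arrays. The difference between the lines in the d6 change was −0.11 (95% interval −0.98 to 0.76).

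*Foxo1* and *Foxo3*, the factors that insulin and growth factor signals restrain through Akt, did not pass the tests between d2 and d0, d6 and d2 or d6 and d0 in either line. *Foxo1* group means ran from 7.40 to 8.28 and *Foxo3* group means from 5.64 to 6.46 in the rMAPC lines, and every neighbour in these orders overlapped. The d6 minus d0 difference of *Foxo1* was 0.27 in Cl19 (95% interval −0.22 to 0.75) and 0.38 in 3c3 (−0.098 to 0.87). That of *Foxo3* was −0.077 in Cl19 (−0.67 to 0.51) and 0.49 in 3c3 (−0.10 to 1.08). 

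*Foxd3* was well above background on 1 of 26 arrays, Cl19 d0 replicate 3 at 2.79, and was not tested. Its probe read between 0.59 and 2.87 on all arrays, so no level of *Foxd3* could be given in any group.

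On d6 against d0, 4 of the 9 tested probes were called in Cl19, where 52.2% of all tested probes were. *Foxf1*, *Foxq1* and *Foxh1* were the 3 higher ones, beside 22.0% of all probes called higher, and *Foxc1* the lower one, beside 30.3% called lower. In 3c3, 2 of the 9 were called beside 48.2% of all, *Foxh1* higher (19.7% of all probes) and *Foxc1* lower (28.6%). On d2 against d0 the test called 5 of the 9 probes in Cl19 (22.6% of all) and 1, *Foxc1*, in 3c3 (19.1%). On d6 against d2 it called 4 in Cl19 (33.3%) and 4 in 3c3 (27.5%).

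The d6 change differed between the lines for 4 of the 9 probes, *Foxc1*, *Foxf1*, *Foxq1* and *Foxh1*, beside 17.4% of all tested probes. For *Foxf1*, *Foxq1* and *Foxh1*, Cl19 had moved further from d0 than 3c3, although the *Foxf1* call was lost without the 3c3 slide of high background. For *Foxc1*, the falls are lower bounds, since most d6 arrays were not well above background, and cannot be ranked between the lines. The median d6 change of all tested probes was −0.20 in Cl19 and −0.21 in 3c3, and on the deposited log2 values, which are not scaled between arrays, it was 0.10 and 0.088. On that scale the test called 6771 probes of Cl19 higher against 5396 lower, and 6167 of 3c3 against 4758, unlike the larger share of lower calls after quantile normalization. Small changes therefore depend on the scaling. On the deposited values *Foxo1*, *Foxo3* and *Foxp1* were called higher on d6 in 3c3, and *Foxo1* in Cl19.

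**Figure D2:**
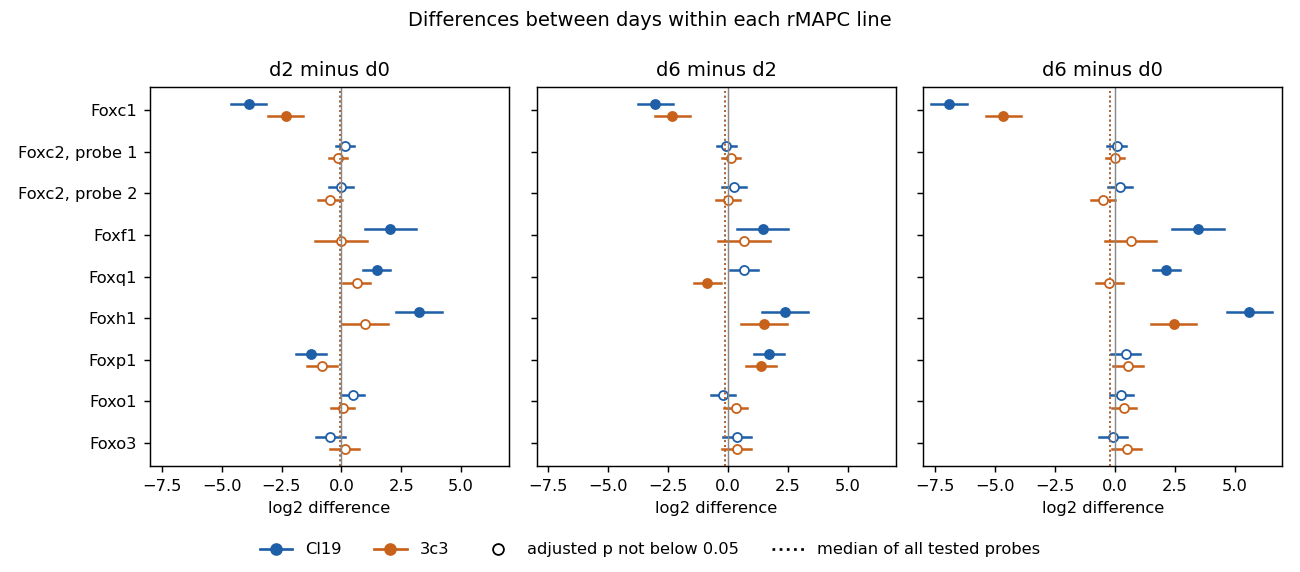
Log2 difference (horizontal axis) between days for each tested probe, in Cl19 and 3c3, with 95% intervals of the limma fit over 26 arrays and dotted lines at the median of all tested probes. Filled points passed the adjusted threshold of 0.05. The d6 minus d0 differences of *Foxf1* (3.49 in Cl19, 0.66 in 3c3) and *Foxq1* (2.15 and −0.23) separated the lines, while those of *Foxp1*, *Foxo1* and *Foxo3* lay between −0.077 and 0.56.

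Primary SMCs were set against d6 of each line to ask how far the differentiated cells resembled them. The test called 8 of the 9 probes against Cl19 (71.4% of all tested probes) and 7 of 9 against 3c3 (71.5%). Both counts include the dimmer *Foxc2* probe, which was tested only because the primary SMC arrays read it well above background. These comparisons share the primary SMC arrays. *Foxc1*, both *Foxc2* probes and *Foxp1* were higher in primary SMCs than on d6 of both lines, *Foxh1*, *Foxq1* and *Foxo3* were lower than in both, *Foxf1* was lower than in Cl19, and *Foxo1* passed neither test.

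*Foxc1* read 10.40 and 10.27 in primary SMCs, which was at least 315-fold higher than on d6 of Cl19 (adjusted p = 1.92e-13) and at least 124-fold higher than on d6 of 3c3 (adjusted p = 2.12e-12). The brighter *Foxc2* probe was higher by a log2 of 4.05 ± 0.20 than on d6 of Cl19 and 4.14 ± 0.20 than on d6 of 3c3 (standard error, adjusted p = 1.04e-12 and 7.06e-13). The dimmer one was at least 30.7-fold and 17.0-fold higher, since no d6 array of either line was well above background. It passed the probe filter only through primary SMCs, the group where it is high, so its calls here add no separate support.

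*Foxp1* read 13.46 and 13.47 in primary SMCs and was 10.4-fold higher than on d6 of Cl19 (adjusted p = 2.04e-08) and 27.9-fold higher than on d6 of 3c3 (adjusted p = 1.08e-10). Its level in every other group was lower, with no overlap.

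*Foxh1* read 2.54 and 3.37 in primary SMCs and was well above background on neither array, at least 96.3-fold lower than on d6 of Cl19 (adjusted p = 8.07e-11) and 19.0-fold lower than on d6 of 3c3 (adjusted p = 1.92e-08). *Foxq1* read 8.24 and 8.04, below every rMAPC array. It was 49.5-fold lower than on d6 of Cl19 and 13.3-fold lower than on d6 of 3c3 (adjusted p = 3.05e-12 and 1.44e-09). *Foxo3* read 4.55 and 4.95 and was 2.42-fold and 2.92-fold lower (adjusted p = 0.00133 and 0.000212).

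*Foxf1* in primary SMCs, at 6.39 and 6.87, was 4.81-fold lower than on d6 of Cl19 (adjusted p = 0.00171) and did not pass the test against d6 of 3c3 (log2 difference −0.31, 95% interval −1.52 to 0.90). *Foxo1* read 7.91 and 7.69 and passed neither test, with differences of 0.12 (95% interval −0.42 to 0.66) and −0.49 (−1.03 to 0.053). The scale matters here. On the deposited values the median of all tested probes lay at −2.17 against Cl19 and −2.09 against 3c3, whereas it was −0.13 after quantile normalization, and *Foxo1* was then lower by 2.27 and 2.80 (adjusted p = 4.88e-08 and 1.98e-09), close to that median. The directions of the other called probes were the same on both scales.

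**Figure D3:**
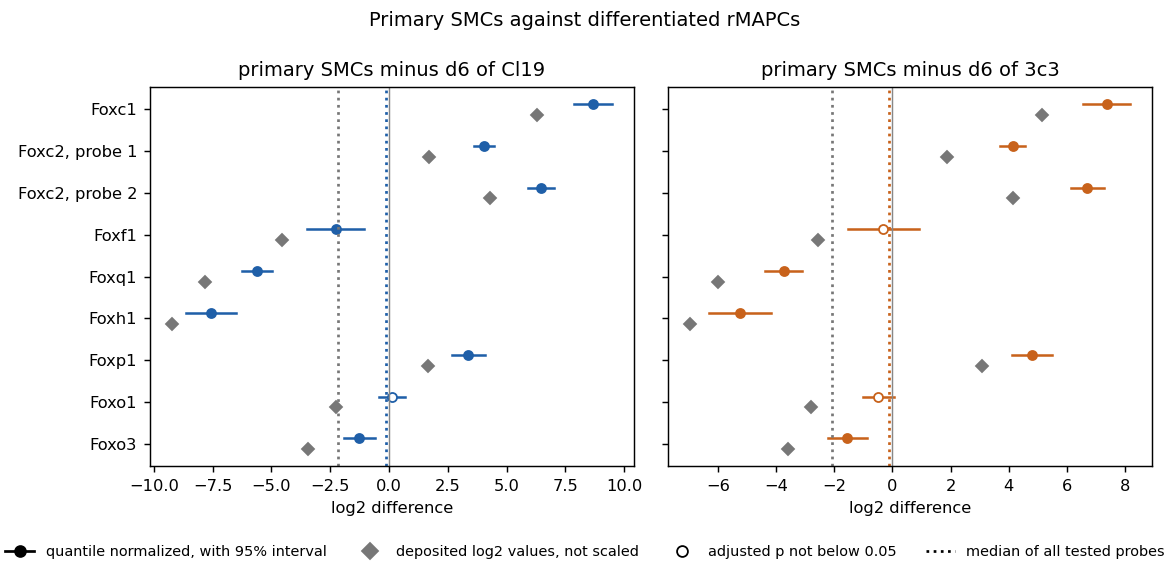
Log2 difference (horizontal axis) of primary SMCs minus d6 of Cl19 (left) or 3c3 (right) for each tested probe. Circles with 95% intervals are quantile-normalized values, diamonds the deposited log2 values, and dotted lines the median of all tested probes on each scale. *Foxc1*, *Foxc2* and *Foxp1* stay to the right of 0 on both scales, whereas *Foxo1* moves from 0.12 to −2.27 against Cl19.

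The order of the groups summarises each gene. After quantile normalization *Foxc1* was highest in primary SMCs, then on d0 of Cl19 and d0 of 3c3, with no overlap between these neighbours, whereas on the deposited values primary SMCs, at 8.30 and 8.26, lay below d0 of Cl19, at 8.60, 8.67 and 8.53. It was lowest on d4 and d6 of Cl19, which overlapped. *Foxq1* was lowest in primary SMCs and had its highest mean on d6 of Cl19. Those d6 arrays lay above the d4 arrays of Cl19 but overlapped its d2 arrays. *Foxh1* was highest on d4 and d6 of Cl19, which overlapped, and the d0 groups of 3c3 and Cl19 and primary SMCs followed at the low end without overlap. *Foxf1* was highest on d6 of Cl19 and lowest on d0 of Cl19, and every group overlapped the next. *Foxp1* stood apart in primary SMCs at the top.

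Over the 24 rMAPC arrays, which share lines, days and slides, *Foxc1* and *Foxh1* ran opposite to each other (Pearson's r = −0.92), and *Foxh1* and *Foxf1* ran together (0.84), as did *Foxf1* and *Foxq1* (0.78). The genes whose probes were most like *Foxc1* were *Blvra* (0.99), *Phactr3* (0.98) and *Upp1* (0.98). Those most like *Foxh1* were *Lhfpl6* (0.98), *Rph3al* (0.97) and *Kdm6b* (0.97). *Foxq1* was followed most closely by *Aktip* (0.91), *Slc43a2* (0.90) and *Cblc* (0.88), and *Foxp1* by *Tmem171* (0.89), *Unc13d* (0.89) and *Cdkn1c* (0.88). Despite that correlation, *Cdkn1c* differed between d6 and d0 by −1.46 in Cl19 and 0.90 in 3c3, beside 0.45 and 0.56 for *Foxp1*. *Tmem171* and *Unc13d* were higher on d6 in both lines.

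RefSeq promoters of GRCr8 were given for 6 of the 10 genes, and those of the 3 that were called over time in both lines are shown, as the 250 bases before the gene's start, all on the minus strand: *Foxc1* at chr17:32844101-32844350, *Foxq1* at chr17:33124088-33124337 and *Foxp1* at chr4:133353281-133353530. Capitals mark the Smad motif CAGAC and the forkhead motif GTAAACA, each searched on both strands. They do not overlap.
Foxc1: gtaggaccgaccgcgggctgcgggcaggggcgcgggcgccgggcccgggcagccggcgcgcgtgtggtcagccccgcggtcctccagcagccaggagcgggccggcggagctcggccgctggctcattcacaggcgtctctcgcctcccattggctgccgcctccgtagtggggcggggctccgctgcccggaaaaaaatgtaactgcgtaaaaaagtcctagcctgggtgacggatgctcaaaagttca
Foxq1: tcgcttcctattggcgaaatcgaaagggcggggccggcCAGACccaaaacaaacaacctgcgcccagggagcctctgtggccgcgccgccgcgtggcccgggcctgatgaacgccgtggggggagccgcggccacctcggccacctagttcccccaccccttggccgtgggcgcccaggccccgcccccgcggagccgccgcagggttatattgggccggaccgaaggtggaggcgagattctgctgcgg
Foxp1: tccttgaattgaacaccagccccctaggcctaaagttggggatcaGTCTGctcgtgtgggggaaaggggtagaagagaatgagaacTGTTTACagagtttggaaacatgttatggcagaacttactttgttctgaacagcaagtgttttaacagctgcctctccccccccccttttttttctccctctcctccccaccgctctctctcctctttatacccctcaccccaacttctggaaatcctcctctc

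The *Foxq1* and *Foxp1* windows each held 1 Smad motif, starting 212 and 205 bases before the gene's start, and the *Foxp1* window held 1 forkhead motif, 164 bases before it. The letters of neither motif are in the *Foxc1* window. Of all 33469 promoter windows of that length, 42.9% held the Smad motif and 3.21% the forkhead motif, so the former is common.

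Among 34 other forkhead genes listed, 27 had a probe and 20 were tested. In Cl19 the d6 test called 8 of them higher and 3 lower, and in 3c3 it called 5 higher and 4 lower, where 22.0% and 30.3% of all tested probes were called higher and lower in Cl19 and 19.7% and 28.6% in 3c3. Their median change was 0.03 and 0.38 beside −0.20 and −0.21 for all tested probes. With the slide as a block, 10 were called higher in 3c3 and 5 lower in Cl19. *Foxj1*, which drives the motile cilia program, rose from a mean of 4.69 to 13.52 in Cl19 and from 3.51 to 9.94 in 3c3. *Foxa3*, an endodermal factor, was well above background on no d0 array and at least 55.1-fold and 27.1-fold higher on d6. *Foxe1*, a thyroid factor, rose by a log2 of 5.03 and 3.08, and *Foxn3* by 0.74 and 1.26. *Foxm1*, a factor of dividing cells, fell by 1.56 and 1.33. *Foxr1* could not be read above background on any d6 array of either line and was at least 2.00-fold lower than on d0 in 3c3, with no bound for Cl19.

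**Figure D4:**
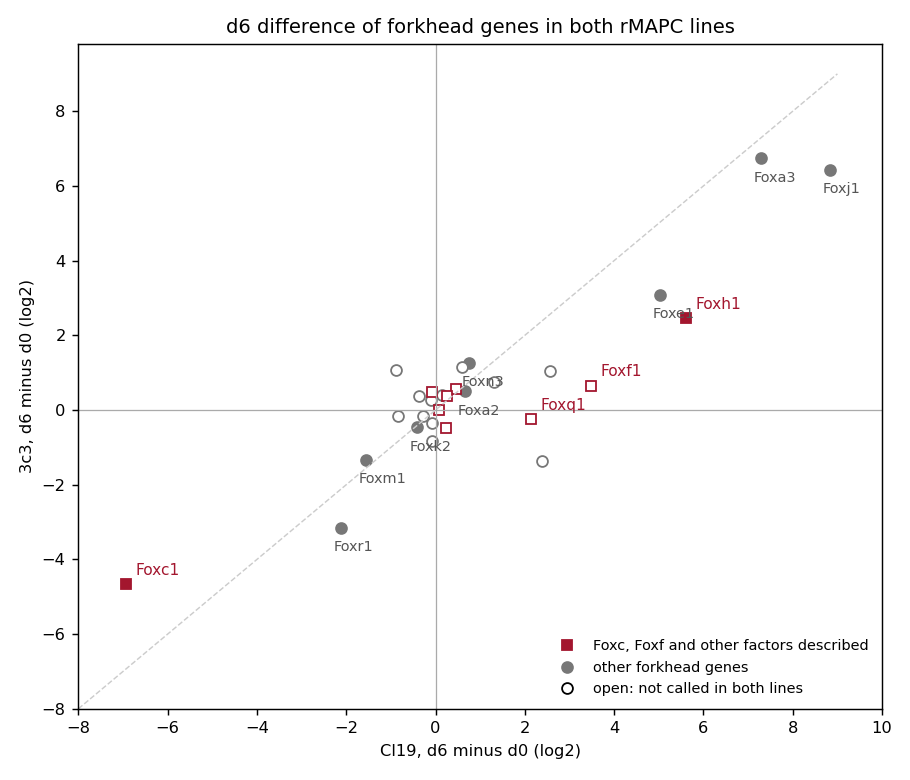
Log2 difference between d6 and d0 in Cl19 (horizontal axis) and 3c3 (vertical axis) for the forkhead factors described here (squares) and the 20 other tested forkhead genes (circles), filled where called in both lines. The dashed line marks equal change. *Foxc1* lies at −6.92 and −4.65 and *Foxh1* at 5.62 and 2.46, while *Foxf1* and *Foxq1* lie to the right of the line.

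Genes around each factor were read from lists, by the brightest probe of each gene. Of the 13 tested genes of the Nodal pathway and *Foxh1* targets, Cl19 had 10 called higher and 1 lower on d6, whereas 3c3 had 7 and 1. Among all tested probes the higher calls made up 22.0% in Cl19 and 19.7% in 3c3, and the lower ones 30.3% and 28.6%. The median change of the 13 genes was 3.02 and 2.03. *Lefty2*, a Nodal antagonist and target, rose from 3.40 to 15.83 in Cl19 and from 4.16 to 12.08 in 3c3. *Lhx1* rose by a log2 of 5.71 in Cl19 and at least 59.2-fold in 3c3, and *Mixl1* at least 99.4-fold and 4.80-fold, both being genes of early mesendoderm. In primary SMCs 12 of these 13 genes were called lower than on d6 of Cl19 and 11 lower than on d6 of 3c3. Of all tested probes, 71.4% and 71.5% were called in either direction. The share called lower alone was smaller: with the slide as a random block, 9143 of the 24442 tested probes were lower against Cl19 and 8966 against 3c3.

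Of the 13 tested genes of hedgehog signalling and the *Foxf1* axis, Cl19 had 4 called higher on d6 and 4 lower, whereas 3c3 had 1 and 3, with medians of −0.10 and −0.46. These counts stand beside 22.0% higher and 30.3% lower for all tested probes in Cl19, and 19.7% and 28.6% in 3c3. *Bmp4*, which lies downstream of *Foxf1*, rose by 5.60 and 4.38. *Ihh*, the ligand, fell by 6.80 and 3.18. *Bmp4* rose in 3c3 too, where *Foxf1* did not pass the test, which does not show that *Foxf1* stayed level there. Whether *Foxf1* had a part in the *Bmp4* change was not tested in either line.

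Of the 11 tested genes known downstream of Foxc factors, Cl19 had 5 called higher on d6 and 2 lower, whereas 3c3 had 3 and 2, with medians of −0.34 and 0.12. The background over all tested probes was 22.0% higher and 30.3% lower in Cl19, and 19.7% and 28.6% in 3c3. *Cxcr4*, a chemokine receptor, was well above background on 1 and 2 of the 3 d0 arrays of Cl19 and 3c3 and at least 319-fold and 26.2-fold higher on d6. *Itgb3*, an integrin subunit, rose at least 5.99-fold in Cl19. Its probe passed the filter only through d6 of Cl19, the group where it is high. Its calls, which the counts include, therefore add no separate support.

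Of the 26 tested genes of the Foxo pathway and its targets, Cl19 had 13 called higher on d6 and 5 lower, whereas 3c3 had 14 and 2, with medians of 0.79 and 1.02. In both lines 12 were called higher. Against these counts stand 22.0% higher calls over all tested probes and 30.3% lower ones in Cl19, with 19.7% and 28.6% in 3c3. *Ccng2* rose by 3.01 and 3.18, *Cdkn1a*, a cell cycle inhibitor, by 3.12 and 2.15, and *Fbxo32*, a ubiquitin ligase gene, at least 5.48-fold in Cl19. The *Fbxo32* probe passed the filter only through d6 of Cl19, the group where it is high. Its calls, which the counts include, therefore add no separate support. *Foxo1* and *Foxo3* themselves did not pass the d6 test. Of the 10 tested genes of neural crest and *Foxd3*, Cl19 had 4 called higher and 1 lower, whereas 3c3 had 2 and 1, with medians of 0.52 and 0.14 and beside the same shares of all tested probes. *Sox10* rose by 6.84 and 4.06 and *Ets1* by 1.39 and 1.88.

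Markers of cell types moved with these changes, and their part in them was not tested. Their counts stand beside 22.0% of all tested probes higher and 30.3% lower in Cl19, and 19.7% and 28.6% in 3c3. Of the 8 smooth muscle markers, 5 were called on d6 in Cl19, all higher, and in 3c3 6 were higher and 1 lower. *Tagln* rose from 9.31 to 15.85 and from 8.83 to 14.78. The log2 of their summed signal ranged from 10.9 to 11.1 on d0 and 15.9 to 16.2 on d6 of Cl19, from 10.5 to 10.7 and 14.8 to 15.5 in 3c3, and from 16.58 to 16.62 in primary SMCs. Of the 7 markers of rMAPCs and primitive endoderm, 5 fell and 1 rose in Cl19, and 4 fell and 1 rose in 3c3. *Pou5f1*, which encodes Oct4, was at least 283-fold lower on d6 of Cl19 and fell by 4.11 in 3c3. Of the 5 fibroblast markers, 3 rose and 1 fell in Cl19, and 1 rose and 1 fell in 3c3. Of the 2 called in both lines, *Col1a1* rose by 7.27 and 3.53 and the other fell in both. *Thy1* was well above background on no rMAPC array. Of the 6 endothelial markers, 3 fell and none rose in Cl19, and 1 rose and 1 fell in 3c3, with median changes of −1.54 and 0.16. With the slide as a block, 4 fell in Cl19 and 2 rose in 3c3. *Pecam1* was at least 12.0-fold and 3.34-fold lower on d6, when 2 of the 3 arrays of each line still read it above background, and *Tie1*, a receptor gene, fell by 1.88 in Cl19 and rose by 1.54 in 3c3. Of the 3 blood cell markers with a probe, all arrays detected *Cd68* above background and none detected *Cd3e*. *Ptprc* was well above background on both arrays of primary SMCs, on some but not all d6 arrays of Cl19, and on no other array. The 3 fat cell markers were on none of the arrays of d0 and d6.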

How the data were processed

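Cy3-labelled RNA of each sample was hybridized to an Agilent rat 4x44K array, and the authors quantified it with Agilent Feature Extraction 10.1.1.1 (version from the submitters' processing notes). The deposited scanner files hold processed intensities, background-subtracted by the scanner software and not scaled between arrays, together with mean and local background intensities. The deposited series table holds log2 values that equal the log2 of the processed intensity, with no further scaling by the authors.

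From these files, log2 processed intensities of gene probes (control features left out) were quantile-normalized in R 4.3.3 with limma 3.58.1. A probe was tested if some group had it well above background on all of its arrays. One limma model with the 9 groups as its terms was fitted to all 26 arrays, with moderated t-statistics, an F-test per line over days, and Benjamini-Hochberg adjustment over all 24442 tested probes at 0.05. The script was tested on simulated data.

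The members and gene lists were chosen with earlier results of these data known. Every member was to be named with all its probes matched by gene name, and the matches of *Foxc1* and *Foxf1* by gene number were added to that rule. Of members called over time in both lines, the 3 genes with the highest correlation were named, and of each list up to 3 genes (6 for other forkhead genes) with the largest mean d6 change among those called in both lines. A gene that this rule names is not reported here. *Cd3e*, *Cd68*, *Ptprc*, *Dcn*, *Lum* and *Thy1* were named after their values were seen. Replicate number within a line is the slide. Arrays of 1 slide deviated together from their group means with a correlation over 0.1 in 16 of 18 pairs in Cl19 (lowest 0.061, median 0.33) and in 18 of 18 in 3c3 (lowest 0.20, median 0.41). The slide as a block, other scalings and background corrections, the probe filter, a floor, the arrays in the fit, the methods' t-test and leaving out arrays were tried as alternatives. The number of arrays limits the precision.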

Additional observations from a re-analysis of the deposited data

Results flagged for a closer look

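The change from d0 to d6 differed between Cl19 and 3c3 in a direct test of the difference for 4 genes. The change in Cl19 minus that in 3c3 was −2.27 for *Foxc1*, 2.83 for *Foxf1*, 2.38 for *Foxq1* and 3.16 for *Foxh1* on the log2 scale. Within the 3 slides of each line the d6 change of *Foxq1* was 1.81, 2.26 and 2.37 in Cl19 and −0.15, −0.04 and −0.51 in 3c3. That of *Foxh1* was 5.85, 5.05 and 5.96 in Cl19 and 2.62, 1.99 and 2.76 in 3c3. That of *Foxf1* was 3.75, 3.01 and 3.70 in Cl19 and 1.73, −0.13 and 0.37 in 3c3, and its difference between the lines lost the call without the 3c3 slide of high background (2.69, limma adjusted p = 0.0681). For *Foxc1*, the d6 values were not well above background apart from 1 of the 3 arrays of 3c3.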

How the results depend on the processing

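Of 1278 values of single probes under the alternatives, 1190 kept direction and call, 25 lost and 20 gained a call, 42 turned sign with neither value called, and 1 turned direction with a call: *Foxo1* in primary SMCs against d6 of Cl19, at −2.27 on the deposited log2 values. The number of these probes called on d6 against d0 in 3c3 went from 2 to 5 on those values. On d2 against d0 it went in Cl19 from 5 to 1 by the methods' t-test after Benjamini-Hochberg adjustment, and in 3c3 from 1 to 3 on the deposited values, 2 in a fit of that line alone, 3 by the methods' t-test unadjusted and 2 after adjustment. On d6 against d2 it went in Cl19 from 4 to 1 by the adjusted t-test, and in 3c3 from 4 to 2 without the slide of high background and to between 2 and 4 when single arrays were left out, the 2 being without 3c3 d2 replicate 1 or 3c3 d6 replicate 3. Over the 3c3 time course it went from 5 to 3 without that slide. With the replicate number as a block, the counts of called probes were 4 and 2 on d6 against d0, 5 and 1 on d2 against d0 and 4 and 4 on d6 against d2 for Cl19 and 3c3, and the block changed no call of these probes. The cause of the other changes was not tested. Of 899 values of the list genes named, 886 kept direction and call and 13 lost the call. Settings for the gene lists and correlations were chosen after seeing the data. Signals below background bound the fall of *Foxc1* and leave *Foxd3* unmeasured.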
